A study of Mus musculus with 15 samples.

Results

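RNA was compared between tumor derived endothelial cells (TDECs) that had received the antidepressant sertraline and TDECs that had not. The 6 libraries, 3 treated and 3 untreated, were picked by their sample titles out of the 15 in the series, whose other 9 hold the starting cells, an earlier time point and normal endothelium. TDECs are grown from 005, a mouse glioma stem cell line of C57BL/6 background, by culture in the endothelial medium EGM-2 at 1% oxygen. The treated cells had been differentiated for 5 days and were collected 24 h after sertraline was added at 5 μM. Origin, medium and oxygen were shared by both groups, the labels give the untreated libraries no day, and from the study's methods they were taken to be day 5 cells. Whether the untreated cells received a vehicle is not given in the sources used here, and as the drug was left on for a further day the treated cells may be older by that day. A separate start or batch of the treated cultures and the drug cannot be told apart. The cells come from a single line in culture, and the libraries are bulk RNA, in which fewer cells of a type and less RNA per cell cannot be told apart.

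Sertraline blocks the serotonin transporter of neurons, and as a cationic amphiphilic molecule it also collects in acidic compartments such as lysosomes. TDECs are cells that glioma stem cells form when they take on traits of vessel wall cells, and their growth is thought to depend less on VEGF than that of normal endothelium. Immediate early genes encode transcription factors that are induced within minutes by growth factors, mostly through the ERK kinase pathway, and whose RNAs are short lived.

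The libraries held 11283680 to 12455832 counts per untreated library and 13557376 to 13639357 per treated library, and 15540 of 49585 genes had enough counts to be tested. Treated replicate 2 differed most from its group: the chi-square per gene was 6.92 and 7.21 to the other treated libraries, 2.27 between these and 2.33 to 2.61 among the untreated. Mitochondrially encoded genes took 3.48% to 3.60% of the counts without and 2.47% to 2.62% with the drug. Of 30 endothelial marker genes 14 could be tested, and the summed level of all 30 was 185 to 200 CPM (counts per 1000000 counts of a library, scaled by TMM over the 6 libraries) without and 186 to 200 CPM with sertraline. Defining markers were near or at 0 in both groups. The junction gene Cdh5 had 3 counts over the untreated and 1 over the treated libraries. Cldn5, Tie1 and Sox17 had none, which allows up to 0.0832 and 0.0736 CPM (3 counts over each group, counting error only). Listed Mmrn1 had none either, but it was also at 0 CPM in the brain endothelial cells of the series (MBMECs). Pecam1 (CD31) was at 0.74 CPM untreated and 0.798 CPM treated, against 1295 CPM in MBMECs (TMM over 15 libraries, means of 3). Cd34 had 19 counts over the untreated and 20 over the treated libraries. Markers of the list that were measured well included Plvap at 58 ± 4.64 CPM untreated (SD, n = 3), Ets1 at 62.1 ± 0.706 CPM and Flt1 at 41.5 ± 3.03 CPM. In 005 cells and MBMECs, Plvap was at 37.9 and 394 CPM, Ets1 at 69.3 and 187 CPM and Flt1 at 1.69 and 172 CPM. These levels are means of 3 (TMM over 15 libraries), with no test between the groups.

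Below, a gene is said to have risen or fallen where the adjusted p of edgeR's quasi-likelihood test, adjusted over all tested genes, was under 0.05, and to have been called where its change was also past 2-fold, a log2 fold change above 1 or below −1. Positive values are higher with sertraline. Called genes made up 5.08% of those tested, with 283 called higher (1.82%) and 506 called lower (3.26%). Without the fold limit 2738 genes rose (17.6%) and 2751 fell (17.7%), or 35.3% in either direction, and the median of all tested genes was −0.00025. In 23.4% of tested genes every treated library lay above every untreated one, and in 23.8% every treated library lay below. A lack of overlap was thus common, and list counts below are to be read beside these shares over all tested genes. The share that rose or fell grew with level, from 4.78% under 1 CPM and 26.0% from 1 to 10 CPM. It was 36.7% from 10 to 100 CPM and 51.5% at 100 CPM or more. For lists of abundant genes the shares over all genes are thus too low a yardstick. Scaled by plain library totals in place of TMM, 3831 rose and 2056 fell and the median of all genes was 0.0711. Most calls were made among weakly expressed genes: 201 of those higher and 413 of those lower had a mean between 1 and 10 CPM, of 4738 tested at that level. Between 10 and 100 CPM 1.75% of 7924 genes were called, and at 100 CPM or more 0.851% of 2585. In that last range 7 genes were called higher and 15 lower, and these held 6 immediate early genes (Fosb, Fos, Egr1, Ier2, Jun and Junb) and the immediate early repressor of growth Btg2 on the lower side, and Scg2, Arl4c, Hbegf, Rgs8, Insig1, Lif and Fosl2 on the higher side.

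**Figure D1:**
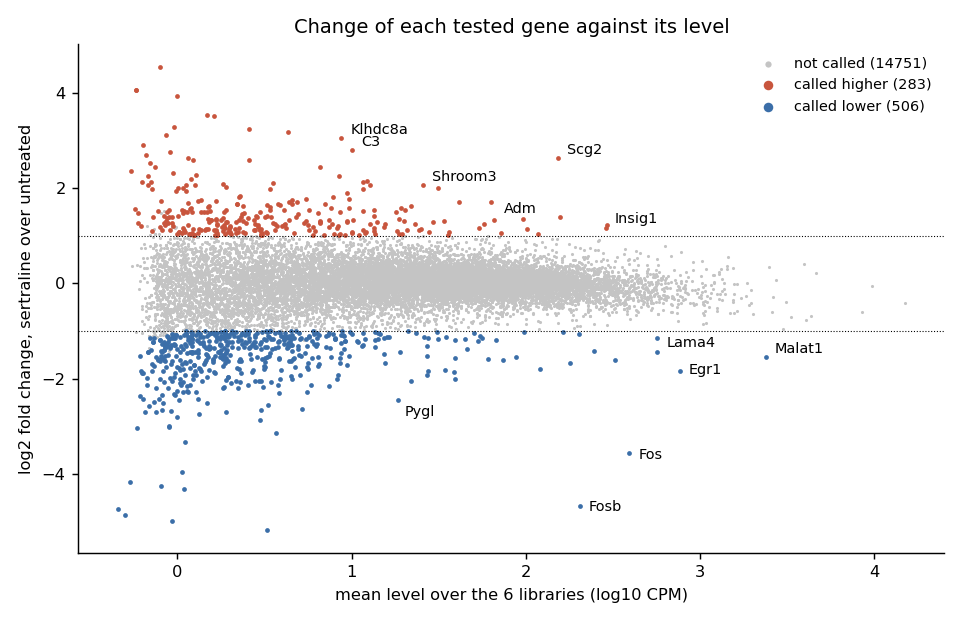
Log2 fold change of treated over untreated TDECs (vertical axis) against the mean level over the 6 libraries (horizontal axis, log10 CPM), each point a tested gene, with the 283 genes called higher in red, the 506 called lower in blue and dotted lines at 2-fold. Most called genes lie under 10 CPM, while Fosb (−4.67) and Fos (−3.57) stand far below other genes of their level and Scg2 (2.64) far above.

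Fosb and Fos, both immediate early genes, had the largest fold changes of the genes called at 100 CPM or more. Fosb, a subunit of the AP-1 transcription factor (chr7:19302696-19310051, mm10), stood at 385, 402 and 388 CPM untreated and 16.7, 14.8 and 14.6 CPM with sertraline (log2 fold change −4.67, SE 0.07, adjusted p = 3.5e-17). Fos, its close relative (chr12:85473890-85477273), stood at 744, 725 and 708 CPM untreated and 55.4, 68.5 and 59.2 CPM with sertraline (log2 fold change −3.57, SE 0.07, adjusted p = 2.3e-15). In both genes every treated library lay far below every untreated one, and the replicates of a group differed little beside that gap.

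The Jun subunits, with which Fos proteins pair in AP-1, fell as well. Jun was at 371, 357 and 352 CPM untreated and 130.1, 142 and 128 CPM with sertraline (−1.43, SE 0.06), and Junb at 276, 265 and 278 CPM untreated and 120.3, 153 and 117 CPM with sertraline (−1.07, SE 0.08). Jund fell within 2-fold, from 379 ± 21.3 to 206 ± 4.77 CPM (SD, n = 3; −0.88). Another subunit went the other way. Fosl2 rose from 73.6, 82.7 and 75 to 159, 164 and 153 CPM (log2 fold change 1.04, SE 0.06, adjusted p = 3.4e-09), and Fosl1 did not pass the test at 4.47 ± 0.279 against 6.02 ± 0.829 CPM (0.43, adjusted p = 0.069). In every AP-1 gene that was called the libraries of the groups did not overlap.

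The Egr genes encode zinc finger factors that growth factors induce, and each of the 4 was called lower. Egr1 stood at 1153, 1229 and 1209 CPM untreated and 328, 377 and 303 CPM with sertraline (log2 fold change −1.83, SE 0.07, adjusted p = 1.5e-11). Egr2 was at 83.3, 96.7 and 94.4 CPM untreated and 28.5, 33.7 and 29.1 CPM with sertraline (−1.59, SE 0.08) and Egr4 at 64, 57.3 and 61.9 CPM untreated and 16.2, 16.1 and 18 CPM with sertraline (−1.86, SE 0.08). Egr3, the one with the lowest level, was at 24.5, 24 and 19.4 CPM untreated and 11.1, 9.26 and 10.5 CPM with sertraline (−1.14, SE 0.12, adjusted p = 2.8e-06). No treated library reached an untreated one in these genes, while the corepressor Nab2, which binds Egr proteins and is itself an Egr target, rose from 156, 152 and 152 to 252, 289 and 222 CPM (0.73, SE 0.07).

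Further called members were Klf2, a factor of vessel quiescence, at 45.3, 41.7 and 42.3 CPM untreated and 10.8, 12.6 and 10.8 CPM with sertraline (−1.92, SE 0.09), and Ier2, at 196, 184 and 181 CPM untreated and 49.8, 63.8 and 46.9 CPM with sertraline (−1.81, SE 0.09). Btg2, which restrains growth, was at 131 ± 6.07 CPM untreated and 44.8 ± 2.82 CPM with sertraline (SD, n = 3; −1.55, SE 0.06), and Zfp36, which speeds the decay of unstable RNAs, at 25, 27 and 31.7 CPM untreated and 9.69, 11.1 and 10.02 CPM with sertraline (−1.44, SE 0.11). The groups were again apart in all 4. Of 42 listed immediate early genes, all of them tested, 12 were called lower and 4 higher, against 3.26% and 1.82% of all genes. In all 23 fell and 13 rose, against 17.7% and 17.6%, and their median was −0.37 against −0.00025 over all genes. The list was not uniform. Nr4a3, an orphan nuclear receptor, rose from 1.27, 0.751 and 0.577 to 7.68, 7.82 and 7.79 CPM (log2 fold change 3.17, SE 0.25, adjusted p = 1.0e-07), Npas4, a factor of neurons, from 0.819, 0.918 and 0.741 to 1.51, 1.94 and 2.02 CPM (1.13), and Ctgf, a matricellular target of YAP, from 4.91, 5.09 and 4.53 to 14.1, 16.8 and 12.3 CPM (1.57, SE 0.15), while Myc rose within 2-fold (0.48).

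**Figure D2:**
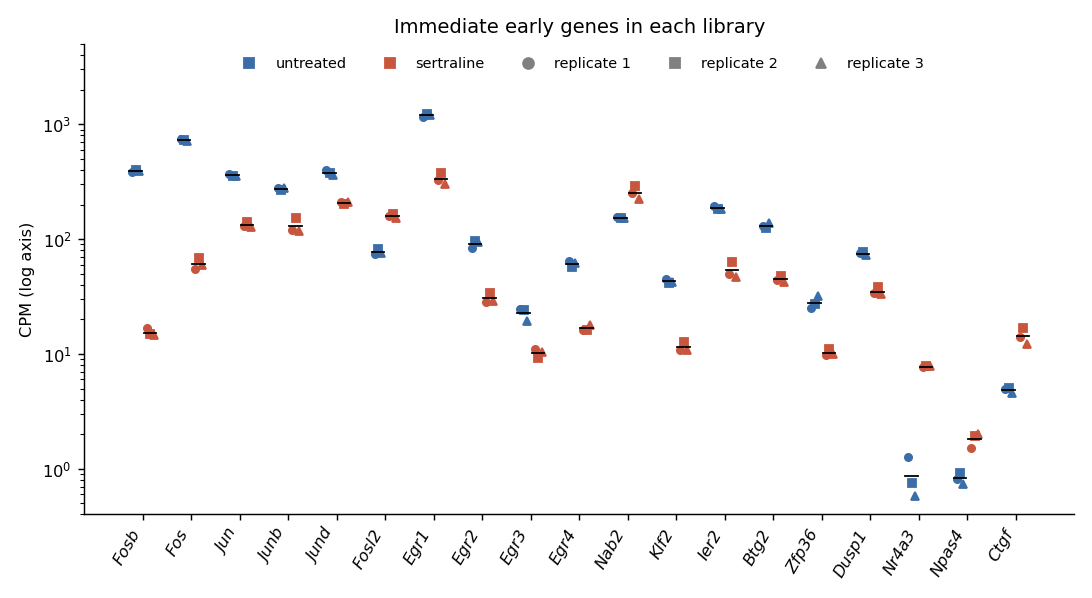
CPM on a log axis of 19 immediate early and related genes in each of the 6 libraries, with replicates as circle, square and triangle, untreated in blue, sertraline in red, and black bars for the means of 3 libraries. Fosb goes from about 392 to 15.4 CPM and Fos from 726 to 61.0 CPM, whereas Fosl2, Nab2, Nr4a3, Npas4 and Ctgf lie higher in the treated libraries.

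Genes that ERK signalling induces to restrain itself did not follow as a group. Of 22 tested, 1 was called lower and 0 higher by edgeR and by DESeq2 alike, with 7 higher at an unadjusted p under 0.05. Over all genes 3.26% were called lower and 1.82% higher by edgeR. In all 7 of the 22 fell and 6 rose, against 17.7% and 17.6% of all genes, and the median was −0.02. Dusp1, a phosphatase of stress kinases and ERK that is also an immediate early gene, was called, at 75.3, 77 and 72.2 CPM untreated and 33.6, 37.9 and 33 CPM with sertraline (−1.1, SE 0.07). Dusp6, which is specific for ERK, was at 830.2, 783 and 775 CPM untreated and 584, 595 and 568 CPM with sertraline (−0.45). Dusp5, a nuclear ERK phosphatase, went the other way from 38.5, 41.2 and 36.2 to 71.7, 79.1 and 68.9 CPM (0.92). The median of this list turned to 0.05 with plain library totals.

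Promoter sequence was looked at for the immediate early genes called lower. In windows of RefSeq promoters (GRCm38.p6, 250 bases before to 50 after a start, both strands), the CArG box, the site of serum response factor, was found in 2 of the 9 genes called lower that matched an entry, Egr2 and Zfp36. It was in 5 of the 13 windows of these 9 genes (38.5%) and in 1.63% of all 32851 windows. Among the 19 matched immediate early genes not called it was in Srf. TGACGTCA, the cyclic AMP response element, was found in Btg2 (1 of the 13 windows), in Dusp1 of the ERK feedback list, in Maff among the genes not called and in 1.79% of all windows. TGANTCA, the AP-1 site, was in none of the 13 windows and in 7.81% of all windows. With so few windows that absence is not a result. Egr1, Egr3 and Ier2 had no entry. The 100 bases nearest to the start that hold the motif and no annotated exon are given for Egr2 (chr10:67537466-67537565, plus strand, for 1 of its 5 annotated starts, with the CArG box from −72 to −63 of the start in capitals) and for Btg2 (chr1:134079232-134079331, minus strand, with TGACGTCA from −166 to −159 in capitals), as examples of each kind.
Egr2: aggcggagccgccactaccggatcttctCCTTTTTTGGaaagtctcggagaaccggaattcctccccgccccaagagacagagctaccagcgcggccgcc
Btg2: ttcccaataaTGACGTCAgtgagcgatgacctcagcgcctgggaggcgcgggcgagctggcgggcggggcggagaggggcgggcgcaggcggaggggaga

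Among genes of the vessel wall, Lama4 and Angpt2, which the study follows up, were measured first. Lama4, the laminin chain of the basement membrane beneath endothelium (chr10:38965515-39110188), stood at 821, 806 and 866 CPM untreated and 307, 272 and 337 CPM with sertraline (log2 fold change −1.44, SE 0.07, adjusted p = 2.3e-10). Angpt2, a ligand of the Tie2 receptor that loosens vessel walls (chr8:18690263-18741562), was at 60.6, 54.3 and 60.4 CPM untreated and 19.7, 20.7 and 18.5 CPM with sertraline (log2 fold change −1.57, SE 0.08, adjusted p = 7.6e-10). Neither gene overlapped between the groups. For comparison across the series (TMM over 15 libraries, mean of 3), Lama4 was at 57.9 in 005, 227 on day 2, 834 in untreated and 308 in treated TDECs and 28.8 in MBMECs CPM, and Angpt2 at 59.3 in 005, 53.3 on day 2, 58.6 in untreated and 19.8 in treated TDECs and 8.1 in MBMECs CPM, given as levels with no test between these groups. Tek, which encodes Tie2, had 14 counts over the untreated and 12 over the treated libraries and could not be tested.

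Other genes of the basement membrane moved both ways. Of 20 tested, 2 were called lower, Lama4 and Col4a4 (−1.21, SE 0.16, at 15 ± 1.77 and 6.47 ± 1.46 CPM), and 2 higher, among them Nid2, which links laminin to collagen IV (1.09). The shares of all genes called were 3.26% lower and 1.82% higher. In all 8 rose and 5 fell, against 17.6% and 17.7% of all genes, and the median was 0.18. Lamb1 and Lamc1, the β and γ chains that assemble with an α chain such as that of Lama4, rose. Lamc1 was at 845, 851 and 870.2 CPM untreated and 1266, 1096 and 1205 CPM with sertraline (0.48, SE 0.05) and Lamb1 at 417, 387 and 401 CPM untreated and 639.9, 549 and 606 CPM with sertraline (0.57). Of the other α chains, Lama5 was at 708 ± 7.76 and 568 ± 43.7 CPM (−0.32), and Lama1 at 84.2 ± 2.83 and 51.1 ± 7.51 CPM (−0.72), and both fell. Integrin chains that pair with β1 to bind laminin rose just within 2-fold, Itga7 (0.98) and Itga3 (0.91), and 0 of 15 integrin genes were called by edgeR or DESeq2, with 6 higher and 2 lower at an unadjusted p under 0.05. With plain library totals, or without untreated replicate 2, treated replicate 2 or treated replicate 3, 1 integrin gene was called higher.

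Vegfa, the main ligand, was at 1903, 1869.9 and 1842 CPM untreated and 1827, 1800.2 and 1989 CPM with sertraline, with overlapping groups (0.00035, SE 0.05, adjusted p = 1.0), and Kdr, its main receptor in endothelium, at 4.46, 3.84 and 3.79 CPM untreated and 4.74, 6.82 and 4.11 CPM with sertraline (0.38, SE 0.21, adjusted p = 0.18). Flt1, the receptor that binds VEGF without strong signalling, was called lower at 44.8, 40.8 and 38.8 CPM untreated and 21.5, 20.8 and 18.5 CPM with sertraline (−1.03, SE 0.09), and was the single call among 8 tested VEGF genes. Of these 2 rose, but 0 by DESeq2, in the fit of 15 libraries, or without untreated replicate 1, 2 or 3 or treated replicate 1. The plot of the 5 groups shows that Kdr in treated and untreated TDECs lay far below its level in MBMECs, the mouse brain microvascular endothelial cells of the series (1.2 in 005, 5.42 on day 2, 4.04 in untreated and 5.27 in treated TDECs and 599 in MBMECs CPM).

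Of 40 other angiogenic ligands and receptors 6 were called higher and 3 lower, against 1.82% and 3.26% of all genes, with 16 risen and 10 fallen, against 17.6% and 17.7%, and a median of 0.13. Scg2, a granin from which the vessel-active peptide secretoneurin is cut (chr1:79434669-79440120), was at 42.9, 41.1 and 42.7 CPM untreated and 254, 297 and 236 CPM with sertraline (log2 fold change 2.64, SE 0.08, adjusted p = 1.4e-12). Adm, adrenomedullin, a vasoactive peptide, was at 37.9, 38.4 and 37 CPM untreated and 92.2, 100.2 and 90.9 CPM with sertraline (1.32, SE 0.06), and Ramp2, which turns the receptor Calcrl into an adrenomedullin receptor, at 4.82, 3.92 and 2.8 CPM untreated and 9.12, 10.1 and 8.73 CPM with sertraline (1.28, SE 0.18). Calcrl itself rose within 2-fold (0.47), so that ligand, receptor and partner were all higher. Cxcr4, the receptor of the chemokine Cxcl12, was at 12.7, 9.6 and 12.2 CPM untreated and 29.4, 28.3 and 27.3 CPM with sertraline (1.3, SE 0.11). Thbs1, an inhibitor of angiogenesis, rose within 2-fold from 196, 183 and 171 to 346, 349 and 333 CPM (0.90), and Thbs2 (1.81) and Edn1 (1.73) were called from 0.984 ± 0.575 and 0.366 ± 0.259 CPM. Besides Angpt2 the called falls were Notch4 (−1.08) and Adm2 (−1.17), from 3.16 ± 0.998 and 1.68 ± 0.241 CPM.

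**Figure D3:**
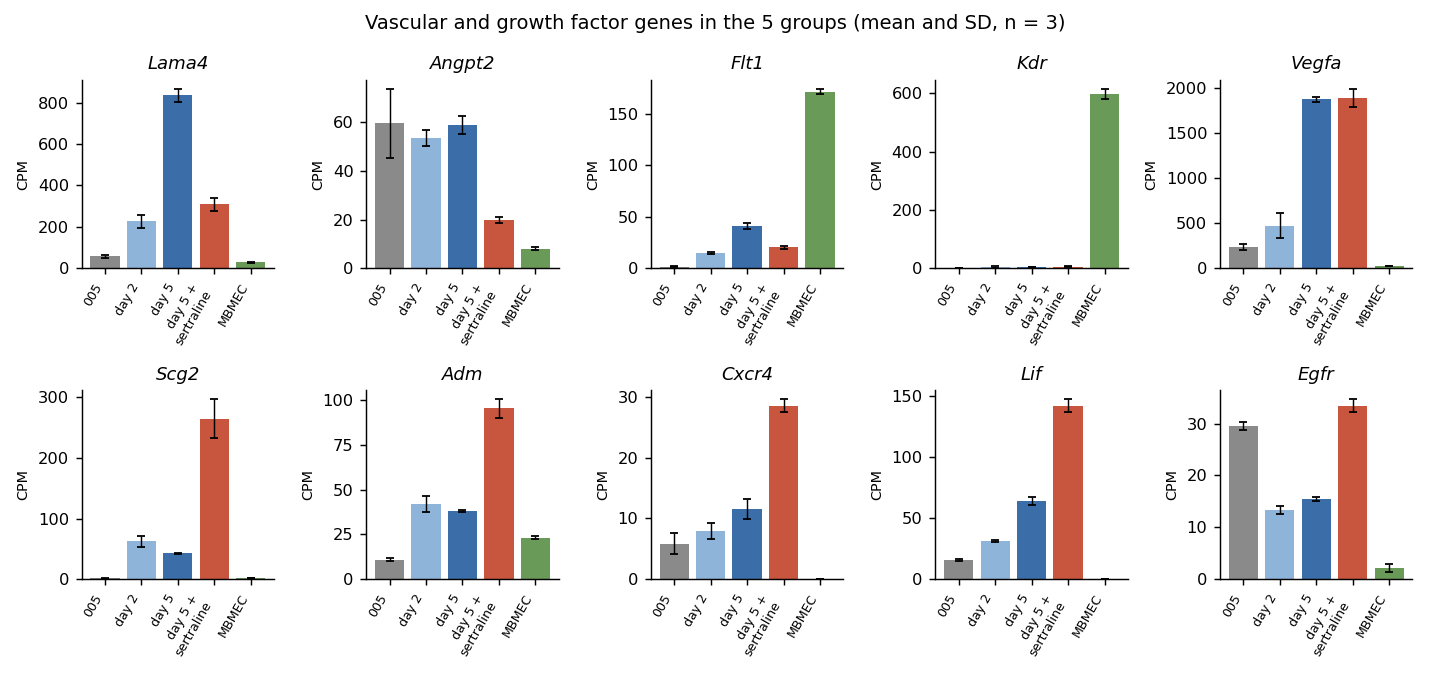
Mean CPM of 10 vascular and growth factor genes in 005 cells, TDECs on day 2, TDECs on day 5 without and with sertraline, and MBMECs, with bars for the mean and whiskers for the SD of 3 libraries. With sertraline Lama4, Angpt2 and Flt1 are lower than in untreated TDECs, Kdr and Vegfa did not pass the test, and Scg2, Adm, Cxcr4, Lif and Egfr are higher.

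Of 42 tested growth factors and receptors 6 were called higher and 1 lower, against 1.82% and 3.26% of all genes. In all 17 rose and 4 fell, against 17.6% and 17.7%, and the median was 0.20. Hbegf, a ligand of the EGF receptor, was at 60.8, 51.2 and 51.7 CPM untreated and 144, 149 and 125 CPM with sertraline (1.35, SE 0.08), and Egfr, the receptor, at 15.4, 15.9 and 15 CPM untreated and 31.9, 33.4 and 34.2 CPM with sertraline (1.11, SE 0.09). Lif, a cytokine that keeps stem cells undifferentiated, was at 60.2, 65.3 and 65.6 CPM untreated and 137, 146 and 138 CPM with sertraline (log2 fold change 1.14, SE 0.06, adjusted p = 8.2e-10). Pdgfb, which recruits pericytes to vessels, was at 2.82, 3.42 and 4.12 CPM untreated and 10.4, 16.4 and 9.81 CPM with sertraline (1.81, SE 0.22), with replicate 2 the highest treated library, and Fgfr2 was called too (1.23), as was Nrg1 from 0.913 ± 0.215 CPM (1.12). In these genes the treated libraries were all above the untreated. The called fall was Gdf15, a stress cytokine, at 4.41 ± 0.89 and 2.16 ± 0.38 CPM (−1.03).

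The genes that the study names for this comparison or lists for a migration term were chosen there on these same libraries, so that their direction is no independent evidence. Of 18 tested 15 were called lower, Vegfa, Kdr and Pecam1 did not pass, and besides those given above they include Ptk2b, a kinase of focal contacts, at 2.37, 3.17 and 2.22 CPM untreated and 0.574, 0.933 and 0.577 CPM with sertraline (−1.88), and the receptor phosphatase Ptprk, at 7.28, 5.93 and 6.18 CPM untreated and 2.08, 3.01 and 2.81 CPM with sertraline (−1.29). Scx (−1.65), Wfikkn1 (−2.08), Mmrn2 (−1.88) and Hes5 (−2.51) were called as well, with untreated means of 1.68 ± 0.304, 3.69 ± 0.539, 0.999 ± 0.0873 and 2.51 ± 0.324 CPM. Fgfbp1 had 18 counts over the untreated and none over the treated libraries and was not tested.

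Chaperones of the endoplasmic reticulum rose together, mostly by less than 2-fold. When proteins fold poorly in this compartment, the sensors Atf6, Ire1 and Perk raise chaperone genes, the unfolded protein response. Of 26 tested genes of this response 20 rose and 0 fell by edgeR's test, against 17.6% and 17.7% of all genes, and the median was 0.34. Several of them are abundant, and of all genes at 100 CPM or more 51.5% rose or fell. By DESeq2 19 rose and 0 fell, and at an unadjusted p under 0.05 22 were higher and 0 lower. The single gene called was Sdf2l1, a partner of the chaperone BiP, at 34, 33.3 and 35.3 CPM untreated and 76.6, 84.5 and 82.1 CPM with sertraline (log2 fold change 1.24, SE 0.07, adjusted p = 1.4e-09).

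Creld2, another secreted folding factor, was at 103, 99.2 and 89.9 CPM untreated and 186, 189.5 and 177 CPM with sertraline (0.92, SE 0.06), and the disulfide isomerase Pdia6 at 456, 461 and 462 CPM untreated and 797, 779 and 805 CPM with sertraline (0.79, SE 0.05). Hspa5, which encodes BiP, was at 3255, 3386 and 3582 CPM untreated and 4369, 4641 and 4418 CPM with sertraline (0.39, SE 0.05, adjusted p = 9.1e-06). The treated libraries lay above the untreated in all 3. Pdia4 (0.67), Hyou1 (0.64), Manf (0.55), Hsp90b1 (0.35) and Calr (0.32) rose in the same way. The sensor Atf6 did not pass the test, at 292 ± 10.2 and 279 ± 15 CPM (−0.06, adjusted p = 0.41).

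The endoplasmic reticulum stress response element, CCAAT and CCACG held 9 bases apart, was searched on both strands after their values were seen. Of the 20 genes that rose 17 had a promoter entry (not Ero1lb, Hyou1 and Manf), and 8 of these held it: Calr, Canx, Creld2, Dnajc3, Hsp90b1, Hspa5, Pdia6 and Syvn1. It was in 0.119% of all windows, and in Derl3 among the 5 matched genes that did not pass. A match is a description of these letters and not a site in use. The 3 windows shown, each free of annotated exons, have the element in capitals, on either strand: Creld2 (chr15:88819510-88819609, plus strand, −126 to −108), Pdia6 (chr12:17266445-17266544, plus strand, −98 to −80) and Hsp90b1 (chr10:86705567-86705666, minus strand, −212 to −194).
Creld2: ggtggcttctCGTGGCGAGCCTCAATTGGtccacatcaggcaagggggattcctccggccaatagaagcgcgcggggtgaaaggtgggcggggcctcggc
Pdia6: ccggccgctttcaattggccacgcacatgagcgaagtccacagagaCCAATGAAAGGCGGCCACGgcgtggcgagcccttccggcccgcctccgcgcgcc
Hsp90b1: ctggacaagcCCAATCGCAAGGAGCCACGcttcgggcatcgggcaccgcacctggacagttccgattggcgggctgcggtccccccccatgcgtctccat

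The integrated stress response, in which Atf4 raises amino acid and survival genes, was examined next. Of 39 tested genes 16 rose and 7 fell, against 17.6% and 17.7% of all genes, with a median of 0.04 (12 fell without treated replicate 2). The sole call was Gdf15. Atf4 was at 551, 557 and 562 CPM untreated and 555, 653 and 554 CPM with sertraline (0.08, adjusted p = 0.34), and Asns, which makes asparagine, at 294 ± 6.47 and 298 ± 7.49 CPM (0.02, adjusted p = 0.79). Ddit3 (CHOP), which lies downstream of both responses, rose from 221, 202 and 218 to 294, 308 and 282 CPM (0.46, SE 0.06). Among cytosolic heat shock genes Cryab was called higher (1.23) and Hspb8, like Cryab a small heat shock protein, lower, at 8.37, 9.85 and 8.81 CPM untreated and 0.718, 1.51 and 2.09 CPM with sertraline (−2.64, SE 0.25). Of 22 tested heat shock genes 4 rose and 7 fell, against 17.6% and 17.7% of all genes, or 6 and 4 with plain library totals. Of 36 oxidative stress and metal genes 0 were called by edgeR or DESeq2, against 1.82% higher and 3.26% lower of all genes by edgeR. In all 5 rose and 16 fell, against 17.6% and 17.7%, with 6 higher and 17 lower at an unadjusted p under 0.05. Their median was −0.14, and 1 was called lower without treated replicate 1.

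Sterol genes were examined next, with earlier results of these data known. Amphiphilic cations interfere with cholesterol leaving the lysosome in cultured cells, and low sterol in the endoplasmic reticulum activates the SREBP factors. Neither sterol nor SREBP activity was measured here, and this cause was not tested. Of 26 tested genes of cholesterol synthesis and uptake 17 rose and 1 fell, against 17.6% and 17.7% of all genes. Their median was 0.28, against −0.00025 over all genes. Insig1, an SREBP target that retains SREBP when sterol is ample, was at 181, 176 and 177 CPM untreated and 401, 379.8 and 411 CPM with sertraline (log2 fold change 1.16, SE 0.05, adjusted p = 1.7e-10). Among the enzyme genes Idi1 rose by 0.68, Cyp51 by 0.63 and Hmgcs1 by 0.49 (from 154, 157 and 154 to 215, 226 and 213 CPM). Fdps was also called (1.37) but at 1.42 ± 0.386 and 3.69 ± 0.416 CPM, and pseudogene copies may take its reads, so that value is uncertain. Npc1l1, a sterol uptake gene of the gut, fell from 2.17 ± 0.0965 CPM (−0.999, adjusted p = 0.038), though not by DESeq2 or without any 1 of 5 libraries. Of 15 tested genes of cholesterol export, which include the sterol sensors LXR and their targets, 3 rose and 2 fell, against 17.6% and 17.7% of all genes, and with plain library totals 8 rose and 1 fell. Mylip, a ubiquitin ligase and LXR target, was called at 5.28, 5.84 and 5.27 CPM untreated and 12.4, 14.7 and 13 CPM with sertraline (1.29, SE 0.14), Apoe (0.70) and Abca1 (0.46) rose within 2-fold, and the lysosomal sterol carrier Npc2 (−0.23) and the LXR gene Nr1h2 (−0.18, adjusted p = 0.045, over 0.05 under 10 alternatives) fell. In fatty acid synthesis 9 of 20 rose and 4 fell (median 0.02), and Thrsp was called lower at 3.46 ± 1.38 and 1.63 ± 0.89 CPM.

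Lysosome genes moved both ways. Of 57 tested 9 rose and 16 fell, against 17.6% and 17.7% of all genes, with a median of −0.06. In each direction 1 gene was called, against 1.82% higher and 3.26% lower of all genes. With plain library totals 15 rose and 9 fell and the median was 0.008. Gpnmb, a lysosomal glycoprotein that is raised in lysosomal storage, was called at 12, 12.6 and 14.5 CPM untreated and 31, 29.8 and 24.7 CPM with sertraline (1.13, SE 0.11), and Ctsk, a protease, was called lower at 2.75 ± 0.46 and 1.1 ± 0.34 CPM (−1.31). Lamp1 was at 917, 906 and 927 CPM untreated and 709, 776 and 691 CPM with sertraline (−0.34). Of 34 autophagy genes 0 were called by edgeR or DESeq2, with 7 risen and 4 fallen, 7 higher and 5 lower at an unadjusted p under 0.05. The 4 falls became 2 by DESeq2, 0 with plain library totals and 0 to 2 without any 1 library other than treated replicate 2, and the receptor Sqstm1 was at 1080.1 ± 13.8 and 1051 ± 40.2 CPM (−0.04, adjusted p = 0.55). Among 27 genes of sphingolipid and phospholipid handling the single call was Cers4, a ceramide synthase, at 9.1, 9.18 and 9.31 CPM untreated and 2.66, 2.08 and 0.937 CPM with sertraline (−2.27, SE 0.24).

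TDECs are kept at 1% oxygen, where HIF factors raise glycolysis. Of 48 tested targets of low oxygen and glycolytic genes 28 fell and 6 rose, against 17.7% and 17.6% of all genes, with a median of −0.34. Gpi1, which turns glucose-6-phosphate into fructose-6-phosphate, was at 4114, 4099 and 4195 CPM untreated and 2434, 2587 and 2556 CPM with sertraline (−0.71, SE 0.04, adjusted p = 5.7e-09). Pgk1, the first step of glycolysis that yields ATP, was at 1894, 1855 and 1936 CPM untreated and 1200.1, 1262 and 1234 CPM with sertraline (−0.62, SE 0.04). Pgam1 (−0.60), Eno1 (−0.58), Pkm (−0.58) and Ldha (−0.40) fell by similar amounts, without overlap between groups. The genes called lower were carbonic anhydrases, Car12 at 7.46, 8.68 and 9.64 CPM untreated and 2.23, 1.79 and 4.11 CPM with sertraline (−1.66) and Car9, a classic target of HIF-1, at 3.91, 2.92 and 3.54 CPM untreated and 1.29, 1.0 and 1.08 CPM with sertraline (−1.61). Against the trend Adm was called higher, as given above, the glucose transporter gene Slc2a1 rose (0.20) and Vegfa did not pass the test. Gapdh was called higher too, but its treated libraries were at 59.8, 75.6 and 157 CPM and its reads can be split with pseudogene copies, so the value is uncertain (1.05 with all libraries and 0.53 without treated replicate 3).

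Several glycogen genes fell. Of 23 tested, 4 were called lower and 0 higher by edgeR and by DESeq2, against 3.26% and 1.82% of all genes. In all 8 fell (5 with plain library totals) and 3 rose (1 without untreated replicate 2 or treated replicate 1), against 17.7% and 17.6%. At an unadjusted p under 0.05 4 were higher, and the median was −0.17. Pygl, the liver form of glycogen phosphorylase, which releases glucose units from glycogen (chr12:70190811-70231488), was at 31.9, 31.1 and 30.3 CPM untreated and 5.67, 5.45 and 5.98 CPM with sertraline (log2 fold change −2.44, SE 0.11, adjusted p = 1.2e-10). Pygm, the muscle form, was at 8.46, 11.2 and 10.05 CPM untreated and 2.94, 3.44 and 2.74 CPM with sertraline (−1.7, SE 0.17), whereas the brain form Pygb did not pass the test at 85.9 ± 4.35 and 88.4 ± 7.93 CPM (0.04, adjusted p = 0.68). Gbe1, which adds branches to glycogen, was at 54.9, 52.6 and 55.4 CPM untreated and 24.9, 23.3 and 23.4 CPM with sertraline (−1.19, SE 0.07), and Stbd1, which tethers glycogen to membranes, at 38.4, 38.1 and 37.6 CPM untreated and 16.6, 17.5 and 16.9 CPM with sertraline (−1.16, SE 0.08). Glycogen synthase Gys1 was at 209, 196 and 205 CPM untreated and 201, 194 and 209 CPM with sertraline, with overlapping groups (−0.01, adjusted p = 0.88). Ppp1r3c, which brings a phosphatase to glycogen, rose within 2-fold (0.71).

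**Figure D4:**
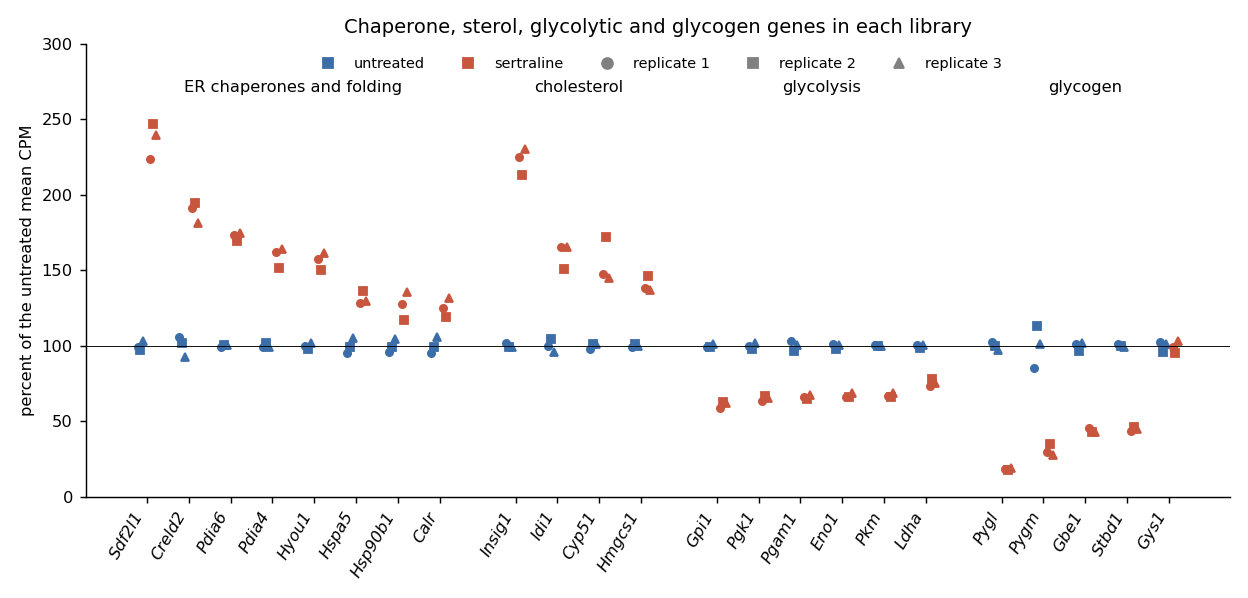
CPM of 23 genes in each library as percent of the mean of the 3 untreated libraries (horizontal line at 100), with untreated in blue, sertraline in red and replicates as circle, square and triangle. Treated libraries lie above 100 for the folding and cholesterol genes shown and below 100 for the glycolytic genes and for Pygl, Pygm, Gbe1 and Stbd1, while Gys1 stays near 100.

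RNAs encoded by the mitochondrial genome fell as well, 10 of 12 tested against 17.7% of all genes, with a median of −0.66. The complex I subunit mt-Nd1 was at 3884, 4163 and 3861 CPM untreated and 1931, 2149 and 2013 CPM with sertraline (−0.97, SE 0.05), and mt-Co1, of complex IV, at 17008, 17424 and 16976 CPM untreated and 12447, 12956 and 13342 CPM with sertraline (−0.41). The ribosomal RNA mt-Rnr2 was called (−1.16, at 786 ± 53 and 353 ± 14.9 CPM), and mt-Co2, the single called messenger RNA, varied widely among untreated libraries (113, 79.1 and 42 CPM). The transfer RNA gene mt-Te, among the 20 largest falls (−1.84), is annotated on the strand opposite to mt-Nd1. The library kit was directional, but how reads were assigned by strand in the counting is not given in the sources used here. Cytosolic ribosomal protein genes fell in 44 of 47 tested, against 17.7% of all genes. By edgeR or DESeq2 0 rose, 1 was higher at an unadjusted p under 0.05, and the median was −0.33. Their summed level was 37000 to 37900 CPM without and 28100 to 31000 CPM with the drug. As many have pseudogene copies that share reads, single members are not given.

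Cell cycle genes rose from a low level. Of 42 tested, 5 were called higher and 0 lower by edgeR and by DESeq2, against 1.82% and 3.26% of all genes by edgeR. In all 27 rose and 1 fell, against 17.6% and 17.7%, 2 were lower at an unadjusted p under 0.05, and the median was 0.58. Without treated replicate 2, 3 were called higher. The called genes act in mitosis: Cenpa and Cenpe at the kinetochore, Plk1, a mitotic kinase, and Cdc20 and Ube2c of the anaphase promoting complex. Cenpa was at 8.55, 10.5 and 9.22 CPM untreated and 21.5, 21.6 and 21.3 CPM with sertraline (1.18, SE 0.11) and Cenpe at 8.37, 8.26 and 8.24 CPM untreated and 20.2, 17.2 and 18.2 CPM with sertraline (1.16, SE 0.11). Top2a rose from 39.8, 45.8 and 45.7 to 80.5, 80.9 and 75.6 CPM (0.85), and Mki67 (Ki-67) from 10.5 ± 0.192 to 14.7 ± 0.79 CPM (0.48). In the 5 groups Top2a was at 791 in 005, 992 on day 2, 43.9 in untreated and 79.7 in treated TDECs and 528 in MBMECs CPM, so that both day 5 groups lay far below 005 and day 2 cells. Pcna, a clamp of DNA replication, did not pass the test, at 62.4 ± 3.47 and 65.2 ± 3.77 CPM (0.06, adjusted p = 0.51). Of the D cyclins, which growth factors raise, Ccnd2 fell from 1803, 1809 and 1788 to 1191, 1115 and 1178 CPM (−0.63) and Ccnd1 from 1469, 1509 and 1467 to 1074, 999 and 1037 CPM (−0.51), while Ccnd3 did not pass the test at 70.4 ± 2.22 and 75 ± 13.2 CPM (0.09, adjusted p = 0.47). The CDK inhibitor Cdkn1a (p21) was at 213 ± 7.37 and 216 ± 24.1 CPM (0.02, adjusted p = 0.84), and Fas, a death receptor and p53 target, was called higher at 1.02 ± 0.0527 and 2.66 ± 1.11 CPM (1.37).

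Complement genes were called higher in 5 of 12 tested, against 1.82% of all genes, with 7 risen (17.6% of all genes), 1 fallen and a median of 0.94. C3, the central component, was at 1.91, 2.67 and 2.97 CPM untreated and 12.9, 28.8 and 11.4 CPM with sertraline (log2 fold change 2.8, SE 0.33, adjusted p = 9.1e-06), and replicate 2 of the treated cells held more than the other treated libraries. C1s1, a protease that starts the classical pathway, was at 4.82, 4.34 and 4.37 CPM untreated and 12.9, 15.1 and 10.2 CPM with sertraline (1.5, SE 0.17). The log2 fold changes of C1ra and Masp1 were 1.39 and 2.07, from untreated means of 2.65 and 0.48 CPM (TMM over 15 libraries). Serping1, their inhibitor, was at 0.637, 0.25 and 0.577 CPM untreated and 4.24, 5.96 and 3.75 CPM with sertraline (3.24, SE 0.34). In each the treated libraries were above the untreated, and without treated replicate 2 the log2 fold change of C3 was 2.26. Clu, a complement inhibitor and chaperone far more abundant than the rest, rose within 2-fold from 195, 178 and 172 to 327, 408 and 275 CPM (0.89). Of 12 further listed genes without enough counts, 6 had none in any library, among them C1qa, C1qb and C1qc.

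Inflammatory genes moved both ways. Of 32 tested cytokine and chemokine genes 5 were called higher and 1 lower (Ptges, of prostaglandin synthesis, −1.26 from 1.91 ± 0.312 CPM), against 1.82% and 3.26% of all genes. In all 16 rose and 7 fell, against 17.6% and 17.7%, and the median was 0.27. Ccl2, which attracts monocytes, was at 4.55, 3.76 and 3.79 CPM untreated and 15.4, 17.9 and 11.4 CPM with sertraline (1.89, SE 0.18), Vcam1, which binds leukocytes to endothelium, at 11.8, 11.4 and 8.15 CPM untreated and 31.4, 32.4 and 27 CPM with sertraline (1.54, SE 0.13), and Ccl7 (3.12), Socs1 (1.49) and Cxcl10 (1.12) were called from 0.168 ± 0.0781, 0.769 ± 0.38 and 1.88 ± 0.362 CPM. The NF-κB genes Nfkb1 (0.52) and Nfkb2 (0.66) and the feedback inhibitor Tnfaip3 (0.69) rose within 2-fold, while Ptgs2 (−0.81) and Il33 (−0.90) fell. Of 26 tested interferon and antigen presentation genes Tap1 (1.39), Xaf1 (1.27) and Tap2 (1.02) were called higher from 1.76 ± 0.497, 0.345 ± 0.103 and 2.02 ± 0.0606 CPM, Xaf1 not by DESeq2, with a replicate block or without any 1 library, and H2-K1, a class I antigen, fell from 74.3, 69.5 and 70.3 to 36.4, 42.3 and 43.3 CPM (−0.81). Of 16 listed macrophage and leukocyte markers 3 could be tested. The summed level of all 16 was 35.6 to 41.1 CPM without and 25.8 to 35.2 CPM with the drug, most of it Cd68, a lysosomal protein of macrophages that fell from 28.1 ± 3.13 to 17.7 ± 3.21 CPM. The defining marker Ptprc had 1 count in all and Adgre1 none, and Cd14 was called higher at 0.697 ± 0.425 and 2.95 ± 0.93 CPM.

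Slc6a4, the serotonin transporter, had 2 counts over the untreated and 1 over the treated libraries. Of 26 listed genes of serotonin transport, synthesis and receptors 8 could be tested, and 2 were called lower, against 3.26% of all genes. These were the transporter Slc22a3 at 2.82, 1.17 and 2.64 CPM untreated and 1.08, 0.789 and 0.649 CPM with sertraline (−1.38, SE 0.37, adjusted p = 0.0087) and the receptor Htr1b at 3.91, 2.84 and 2.8 CPM untreated and 1.94, 1.29 and 1.37 CPM with sertraline (−1.04, adjusted p = 0.0065). Slc29a4, a low-affinity monoamine transporter and the most abundant of the 8, fell from 42.5, 37.1 and 37.6 to 29.2, 27.6 and 31.7 CPM (−0.40), Slc18a2 fell (−0.87) and Htr3a rose (0.82), with 2 fallen and 0 risen without untreated replicate 1 and 0 risen without untreated or treated replicate 2. Htr5b (−0.59), Tph2 (−0.27) and Maoa (0.03), which degrades serotonin, did not pass the test (adjusted p = 0.056, 0.41 and 0.84). Of 10 listed genes of sigma receptors and other proteins reported to bind sertraline 6 could be tested and 0 were called. Of these 1 rose and 3 fell, against 17.6% and 17.7% of all genes, with a median of −0.208. The sigma-2 receptor gene Tmem97, which also acts in sterol traffic, rose (0.26, though not under 2 of the alternatives). Tpt1, which encodes TCTP, fell from 3473, 3592 and 3547 to 2545, 2918 and 2580.0 CPM (−0.40).

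Prom1 (CD133), a marker of glioma stem cells (chr5:43993620-44102032), was at 108, 114 and 114 CPM untreated and 32.6, 38.5 and 39.3 CPM with sertraline (log2 fold change −1.6, SE 0.07, adjusted p = 1.7e-10), without overlap. Hes5, a Notch target of progenitors, was at 2.51 ± 0.324 and 0.432 ± 0.26 CPM and called lower. Nes (nestin, −0.41) and Olig2 (−0.31) fell and Sox2 (0.29) and Cd44 (0.56) rose within 2-fold. Of 26 tested stem cell genes 11 fell and 5 rose, against 17.7% and 17.6% of all genes (median −0.03, and 0.04 with plain library totals). Of these 2 were called lower and 1 higher, against 3.26% and 1.82%, and without treated replicate 2 9 rose. Aldh1a3, which makes retinoic acid, and Vcan, a proteoglycan of the brain matrix, were called lower at over 100 CPM (−1.02 and −1.02). Of 14 tested neuronal markers 7 fell and 1 rose, against 17.7% and 17.6% of all genes. Nefm (−1.4) and Nefl (−2.36) were called lower, from 2.81 and 1.03 CPM, and Chga, a granin, higher (1.5), from 0.56 CPM (TMM over 15 libraries). Rbfox3 (NeuN) had 3 counts over the untreated and 21 over the treated libraries and could not be tested. The summed level of all 23 listed was 480 to 487 CPM without and 333 to 356 CPM with sertraline, and Stmn2 and Slc17a6 had no counts in either group. Contractile markers were mixed, with Myl9 at 8.64, 9.01 and 11.4 CPM untreated and 22.8, 39.4 and 24.7 CPM with sertraline (1.57), Acta2 higher (2.58) and Tagln lower (−1.13). Of 19 listed 12 could be tested, and the summed level of all 19 was 514 to 530 against 596 to 617 CPM. Of 8 tested fibroblast markers of 13, Dcn (2.3), Fbln1 (1.77) and Col1a1 (1.29) were called higher, against 1.82% of all genes. The summed level of all 13 was 315 to 319 against 302 to 315 CPM. The part of any such cells in the results above was not tested.

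**Figure D5:**
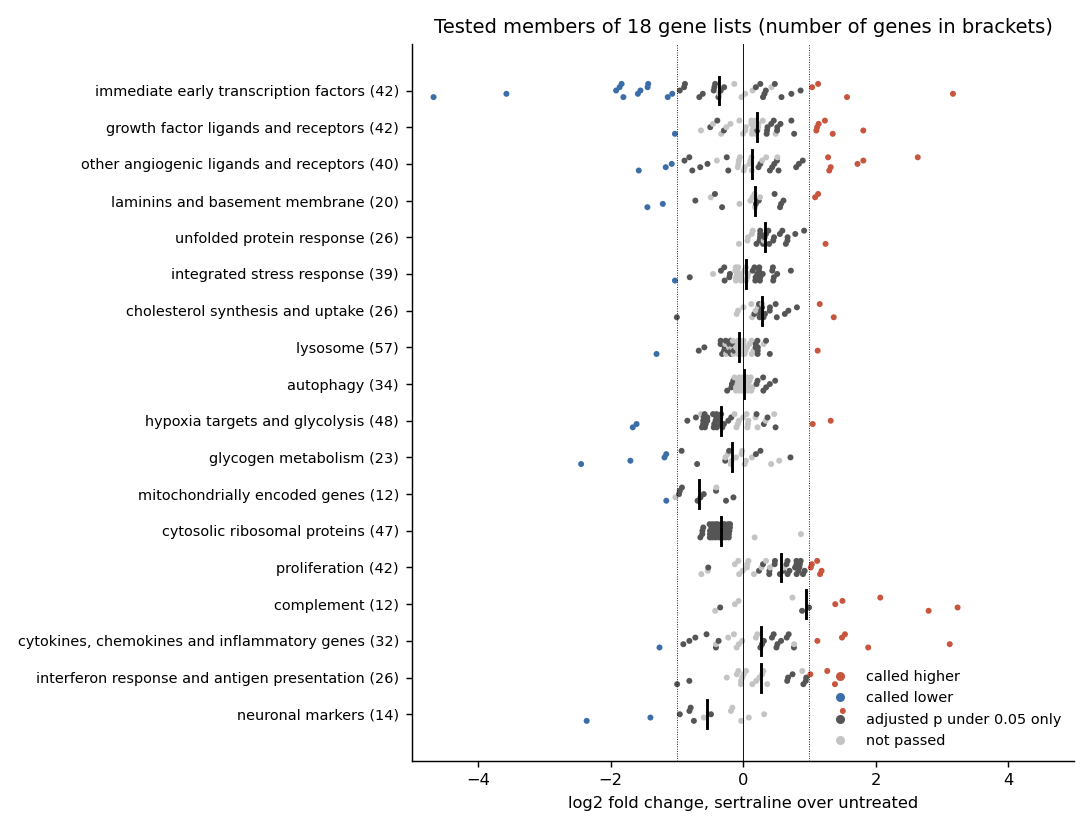
Changes on the log2 scale (horizontal axis) in 18 gene lists, where each point is a tested gene, red and blue for genes called higher and lower, dark grey for an adjusted p under 0.05 within 2-fold, light grey for the rest, and a black bar for the list median. Medians run from −0.66 for the mitochondrially encoded genes to 0.94 for complement, and the unfolded protein response, ribosomal protein and autophagy lists hold few or no calls.

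By the naming rule (an adjusted p under 0.05, no overlap between groups, at least 10 CPM in the higher group), 3788 genes qualified, and the members of the 20 largest rises that were not yet given follow. Klhdc8a, a kelch repeat protein (chr1:132298626-132307357), was at 1.55, 1.67 and 2.39 CPM untreated and 14.1, 20.9 and 11.7 CPM with sertraline (log2 fold change 3.05, SE 0.24, adjusted p = 1.3e-07). Serpinh1, the chaperone of collagen, was at 29.8, 30.6 and 28.4 CPM untreated and 98.5, 99.9 and 92.4 CPM with sertraline (log2 fold change 1.71, SE 0.07, adjusted p = 2.7e-11), and Spp1 (osteopontin) at 18.2, 20.1 and 20.1 CPM untreated and 66.1, 74.6 and 49.2 CPM with sertraline (1.7, SE 0.12). Shroom3, which constricts the cell apex through actin, was at 9.28, 9.77 and 10.8 CPM untreated and 45.6, 45.9 and 33.6 CPM with sertraline (2.07, SE 0.13). The treated libraries were above the untreated in each by the rule. The others were Barx1 (2.43), Ogn (2.25), the neurotrophic ligand Nrtn (2.12), Slc35f1 (2.07), Rassf4 (2.01), the cytokinesis gene Ect2 (1.97), Dmp1 (1.66), Gmpr (1.62) and Anxa1 (1.59).

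Among the 20 largest falls were further Avil, an actin binding protein of the villin family, at 31.1, 38.1 and 36.9 CPM untreated and 9.77, 7.54 and 8.44 CPM with sertraline (log2 fold change −2.04, SE 0.12, adjusted p = 2.9e-09), Otog (−1.82), Ccdc78 (−2.16), Fam19a2 (−2.01), A3galt2 (−1.92) and the NMDA receptor subunit Grin2c (−1.68). Rps26-ps1 (−1.71) is a pseudogene whose reads can come from its parent. Malat1, an abundant nuclear non-coding RNA (chr19:5795690-5802672), stood at 3323, 3673 and 3628 CPM untreated and 1247, 1274 and 1116 CPM with sertraline (log2 fold change −1.55, SE 0.06, adjusted p = 1.5e-11), with no overlap between the groups. Gm20417 (−1.66) and Gm37376 (−1.61) are annotated on the other strand within Malat1. The library kit was directional, but the strand setting of the counting is not given, so whether their reads are separate from those of Malat1 is not known. Its neighbour Neat1, another nuclear RNA, rose (0.49, at 47.3 ± 0.59 and 66.4 ± 9.66 CPM).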

How the data were processed

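Poly(A) RNA libraries of 15 samples, made with a directional kit by the study's methods, were sequenced, and the authors deposited raw read counts per gene. Per the study's methods and processing notes, reads were demultiplexed with bcl2fastq 2.19, trimmed with Trimmomatic 0.38, aligned to mm10 with HISAT2 2.1.0 and counted with featureCounts 1.6.3. The strand and multimapping settings of the counting are not given in the sources used here. Groups were taken from sample titles, and the study calls the 3 libraries of a group biological replicates. The 6 libraries were fitted with edgeR 4.0.16 in R 4.3.3 (TMM factors, filterByExpr with a minimum count of 10, quasi-likelihood test, two-sided, Benjamini-Hochberg adjustment over 15540 genes), and genes were called at an adjusted p under 0.05 and a log2 fold change past 1. The code was tested on simulated data. Alternatives were DESeq2 1.42.0, limma 3.58.1, other scalings and filters, all 15 libraries in 1 fit and each library left out. Equal replicate numbers did not pair samples (correlations of 0.00214, 0.0194 and −0.0368). Named were genes of the study's text and migration list, the 20 largest rises and falls, up to 4 called members per list and direction with members that complete a step, and serotonin genes with at least 10 counts. Added after their values were seen were Aldh1a3, Arl4c, Gm20417, Gm37376, Gpx3, mt-Rnr2, Neat1, Rgs8, Vcan and further list members. The comparison, gene lists and motifs were chosen with earlier results of these data known. Promoter windows are RefSeq (GRCm38.p6) and exons GENCODE vM21. Some genes are not reported here. Floors cover counting error only.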

Additional observations from a re-analysis of the deposited data

How the results depend on the processing

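The 283 genes called higher and 506 called lower stayed within 1.5 times of these counts under DESeq2 (244 and 444), limma-voom (285 and 519), DESeq2 size factors (283 and 506), plain library totals (350 and 447), the 15-library fit (293 and 513) and the 2 other filters, and tested directly against a 2-fold change 41 and 78 passed, a stricter hypothesis by construction. With each library left out in turn the counts ran from 261 to 290 higher and from 486 to 602 lower, with 602 without treated replicate 2. With a replicate block 276 were called higher and 511 lower, of which 771 were shared with the 789, and since equal numbers did not pair the samples that fit is given only here. Of 214 tested named genes 202 kept their sign under all 15 alternatives. The rest did not pass the test in the first place, and the cause was not tested. With plain library totals Atf6 was at 0.00913, Gys1 at 0.0584, Lcn2 at 0.0571, Plvap at 0.0176 and Sqstm1 at 0.0322, and Vegfa was at −0.000818 with limma-voom and −0.000925 with the replicate block. With a library left out Atf4 from −0.00316 to 0.124, Ccnd3 from −0.0535 to 0.201, Cdkn1a from −0.0696 to 0.0914, Gys1 from −0.0391 to 0.0155, Lcn2 from −0.719 to 0.275, Maoa from −0.0241 to 0.0779, Pecam1 from −0.111 to 0.338, Plvap from −0.131 to 0.0448, Pygb from −0.0308 to 0.0979 and Vegfa from −0.0391 to 0.0301 ran across 0. Besides the test against 2-fold, 21 named genes that had passed lost an adjusted p under 0.05 in at least 1 alternative, most often Nr1h2 (10), Xaf1 (9), Npc1l1 (7), Thrsp (5) and Syvn1 (4), and Mmp9 (3). At this depth the counts of genes under 1 CPM limit what can be seen, and Slc6a4, Cdh5 and Tek could not be compared.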

Other observations

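Among genes called at 100 CPM or more that belong to none of the lists, Rgs8, a regulator of G protein signalling, was at 169.8, 180.0 and 179 CPM untreated and 437, 401 and 398 CPM with sertraline (1.22, SE 0.06), and the small GTPase Arl4c at 88.2, 83 and 87.1 CPM untreated and 249, 209 and 221 CPM with sertraline (1.39, SE 0.07). In both the groups did not overlap. Matrix protease genes rose in 12 and fell in 7 of 29 tested, against 17.6% and 17.7% of all genes. The counts were 7 and 7 without untreated replicate 1 or 2 and in the fit of 15 libraries. Mmp9 was called higher, at 0.091, 1.25 and 0.412 CPM untreated and 1.58, 1.65 and 1.87 CPM with sertraline (1.5, SE 0.48).

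Treated replicate 2 was above the other treated libraries by more than 0.75 on the log2 scale in 22 genes and below in 11 of 10256 compared, against 1 to 9 per direction in the other 5 libraries. Lcn2, a secreted iron-siderophore binding protein, was at 21.3, 57.6 and 18.5 CPM in the treated libraries and 32.3, 32.3 and 33.6 CPM in the untreated, and did not pass the test (−0.01), while without treated replicate 2 its log2 fold change was −0.719. The astrocyte filament gene Gfap was at 42, 74.5 and 37 CPM, the metallothionein gene Mt1 at 172, 323 and 182 CPM and Gpx3, an extracellular peroxidase, at 69.4, 129 and 61.4 CPM in the treated libraries, with replicate 2 the highest in each.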
